A study of Arabidopsis thaliana with 104 samples.

Results

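The comparison described here asks whether seedlings of the phr1 mutant answer a bacterial synthetic community (SynCom) differently from wild-type seedlings when inorganic phosphate (Pi) is plentiful. It was carried by 40 RNA-seq libraries, namely all high Pi libraries of Col-0, the standard laboratory accession, and of phr1. The rest of the series held 40 low Pi libraries of the same genotypes and 12 libraries of the double mutant phr1 phl1 at each Pi level. The libraries fell into 4 groups of 10, namely Col-0 without bacteria, Col-0 with SynCom, phr1 without bacteria and phr1 with SynCom. Each group held 2 libraries from each of 5 independent experiments, A to E. The quantity of interest, called the interaction below, was the SynCom effect in phr1 (SynCom minus no bacteria) minus the SynCom effect in Col-0, on the log2 scale and with experiment as a block.

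All seedlings were germinated for 7 days on 1 mM Pi with 0.5% sucrose. They then spent 12 days without sucrose on 625 µM Pi, alone or with SynCom, under a day of 9 h light, and were harvested whole. The low Pi arm of the series, used here only for comparison, differed in having 50 µM Pi for those 12 days. The labels give neither the alleles of the mutants nor the members of the SynCom.

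PHR1 is a MYB-type transcription factor that turns on the genes with which a plant takes up, recycles and saves phosphate, and PHL1 is its close relative with overlapping function. When Pi is plentiful, SPX proteins bind PHR1 and hold it inactive. Salicylic acid is a defence hormone: it is made from isochorismate and, through receptors and WRKY factors, switches on secreted pathogenesis-related proteins and systemic resistance.

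PHR1 was read first, as the check of the genotype labels. It lay between 62.8 and 79.2 CPM (counts scaled to a common library total; median 69.8) in Col-0 without bacteria and between 63.0 and 83.1 (median 71.5) with SynCom. In phr1 it lay between 26.0 and 51.4 CPM (median 32.2) without bacteria and between 26.2 and 46.9 (median 35.9) with SynCom. Every phr1 library was thus below every Col-0 library, and reads of the locus, which overlaps its neighbour AT4G28600, were still counted in the mutant. The interaction of PHR1 itself was 0.03 ± 0.13 (fit ± SE, 95% interval −0.24 to 0.30). PHL1, at medians of 11.5 to 12.7 CPM in the 4 groups, had an interaction of −0.02 ± 0.21, and its groups overlapped throughout.

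Total counts per library ran from 2290087 to 9550846, with a median of 5067594, and 17789 genes passed the filter on low counts. Shoot and root markers were both counted in every library. The 23 photosynthesis genes summed to 78060 to 137200 CPM, the root hair genes to 24.8 to 655 CPM, and the genes of endodermis, suberin and stele to 99.98 to 889 CPM. In whole seedlings, fewer cells of a type and less RNA per cell cannot be told apart. One library stood apart from the fit of the 4 groups: D1 of phr1 without bacteria. The SD of its residuals over genes was 0.811 on the log2 scale, against 0.446 in the next library and a median of 0.282. In D1, 23 of 29 tested genes of pattern-triggered immunity were more than 1 log2 unit above D2, its partner from the same group and experiment. RRTF1, a redox-responsive transcription factor, was at 833 CPM in D1 and at no more than 7.90 in the other 39 libraries. D1 belongs to a baseline group, so results that rest on it are given with and without it. The fit without D1 was added after seeing the data.

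**Figure D1:**
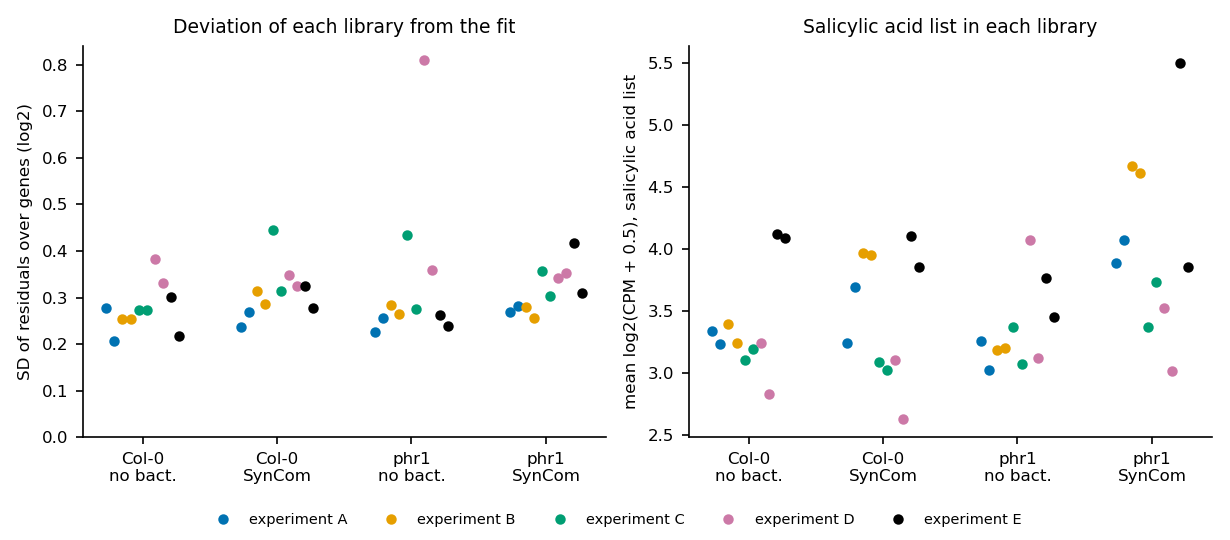
Each point is 1 of the 40 high Pi libraries, coloured by experiment. The left panel gives the SD over genes of the residuals from the fit, where D1 of phr1 without bacteria is at 0.811 and the next library at 0.446, and the right panel gives the mean log2(CPM + 0.5) of the tested salicylic acid genes, which reaches 5.50 in E1 of phr1 with SynCom.

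Both genotypes answered the SynCom at high Pi. In Col-0, 474 genes rose (2.66% of those tested) and 726 fell (4.08%) at an adjusted p under 0.05 in edgeR's quasi-likelihood test. In phr1, 647 rose (3.64%) and 600 fell (3.37%). There were 631 genes called in both genotypes, 52.6% of the Col-0 calls and 50.6% of the phr1 calls. All 631 went the same way, 207 up and 424 down. The size of these counts depended on single experiments: without experiment B the Col-0 count was 734, and the phr1 count was 817, 756 and 819 without A, B and E.

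The genes that moved most evenly were those of xenobiotic detoxification and of the root's barrier layers. Of 18 tested detoxification genes, 16 fell in Col-0 (4.08% of all genes) and 15 in phr1 (3.37%), all 15 of them in both. GSTU24, a tau-class glutathione transferase, fell by 3.03 ± 0.18 in Col-0 and by 3.21 ± 0.19 in phr1. CYP81D11, a stress-inducible cytochrome P450, fell by 3.45 ± 0.25 in Col-0 and by 3.14 ± 0.25 in phr1. Of 19 tested genes of endodermis, suberin and stele, 13 fell in Col-0 (4.08% of all genes) and 14 in phr1 (3.37%), 11 of them in both. FAR4, a fatty acyl reductase that makes alcohols for suberin, fell by 1.2 ± 0.14 in Col-0 and by 1.00 ± 0.15 in phr1. Of 21 tested root hair genes, 9 rose in Col-0 (2.66% of all genes) and 11 in phr1 (3.64%), 9 of them in both. PRP1, a proline-rich cell wall protein, was at a median of 0.500 CPM in Col-0 and 0.225 CPM in phr1 without bacteria, and at 8.02 and 9.18 CPM with SynCom. It rose by 3.79 ± 0.32 in Col-0 and by 4.83 ± 0.35 in phr1, and its interaction was 1.04 ± 0.52 (edgeR, adjusted p = 0.791).

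**Figure D2:**
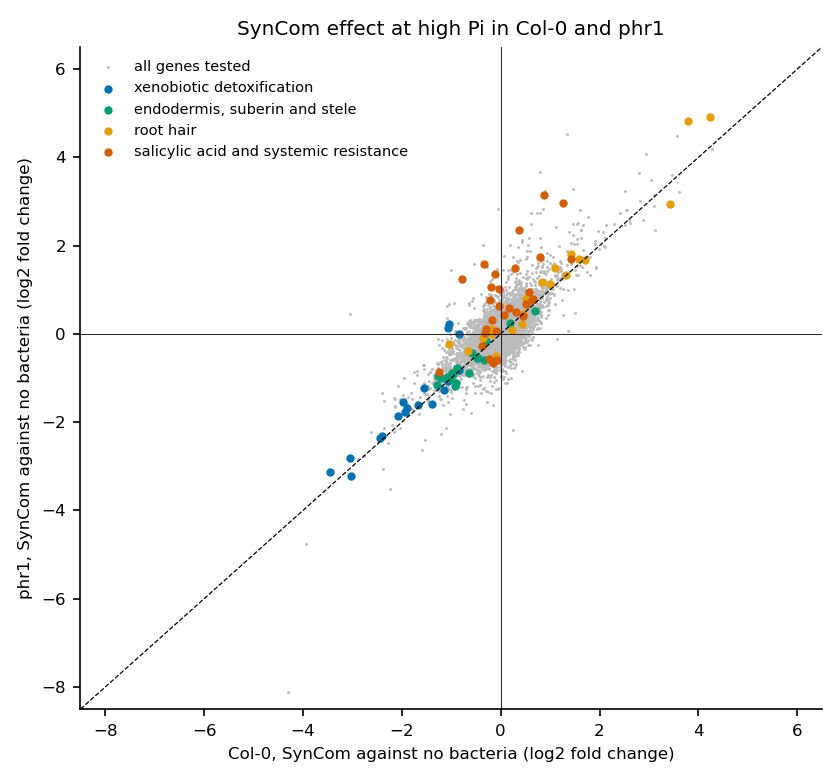
Each point is a gene, with its SynCom effect in Col-0 on the x axis and in phr1 on the y axis (log2 fold change at high Pi); the dashed line marks equal effects. Detoxification and endodermis genes lie along the line below 0, and most salicylic acid genes lie above it, with PR2 at 0.88 in Col-0 and 3.15 in phr1.

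No gene passed the test of the interaction: 0 of 17789 were called (0%), and the smallest adjusted p was 0.135. At an unadjusted p under 0.05 there were 1137 genes (6.39%), of which 553 were above 0 (3.11%) and 584 below 0 (3.28%). With the same design DESeq2 called 12 genes and limma-voom 13, all of them above 0. Without library D1, edgeR called 6, all above 0: AT3G28580, AT3G28510, CYP71A12, AT5G07770, AT1G34420 and AT5G17350. Without experiment D it called 2, AT3G28580 and AT1G34420. The median SE of the interaction was 0.17 and the median 95% interval reached 0.35 to either side. There were 120 genes that had an interaction beyond 1 log2 unit in either direction without passing.

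The 20 genes of smallest p are given as values that did not pass, with the adjusted p between 0.135 and 0.305. For 19 of the 20 the interaction was above 0. They were chosen by a p that all 5 experiments went into, so their direction and their values in single experiments are a description only. The first was AT3G28580, which RefSeq lists as a P-loop nucleoside triphosphate hydrolase. It ran from 0.501 to 3.08 CPM (median 1.06) in Col-0 without bacteria and from 0 to 3.34 (median 0.977) with SynCom. In phr1 it ran from 0.160 to 2.04 CPM (median 0.651) without bacteria and from 1.01 to 6.18 (median 2.23) with SynCom. The Col-0 groups overlapped over most of their range, and in phr1 the groups overlapped only between 1.01 and 2.04 CPM. Its interaction was 2.38 ± 0.47 (95% interval 1.43 to 3.33, adjusted p = 0.135 in edgeR's quasi-likelihood test), and it rose in phr1 by 2.01 ± 0.32 (adjusted p = 2.9e-05).

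AT3G28510, annotated to the same hydrolase superfamily, differed through Col-0. It fell there from a median of 2.59 CPM (1.5 to 7.92) to 0.191 (0 to 1.76, with 5 of 10 libraries at 0). In phr1 it was at a median of 1.36 CPM (0 to 6.2) without bacteria and 1.15 (0 to 17.9) with SynCom. The Col-0 groups overlapped only between 1.5 and 1.76 CPM, and the phr1 groups overlapped almost wholly. The interaction was 3.5 ± 0.70 (95% interval 2.08 to 4.93), a size that is uncertain because of the libraries at 0.

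CYP71A12 encodes a cytochrome P450 that converts indole-3-acetaldoxime in the branch leading to camalexin and related indolic defence compounds. It was at a median of 11.2 CPM (3.1 to 75.1) in Col-0 without bacteria and 6.22 (0.651 to 30.9) with SynCom, and it fell by 0.95 ± 0.25 (adjusted p = 0.013). In phr1 it was at a median of 7.08 CPM (2.48 to 29.1) without bacteria and 13.7 (0.572 to 61.1) with SynCom. The groups overlapped in both genotypes, and the interaction was 1.65 ± 0.35, from 0.59 in C to 2.06 in E. CYP71A12 was not called in phr1 (0.70, adjusted p = 0.084 in edgeR) but was called there without D1 (0.78, adjusted p = 0.03). CYP71A12 has a close tandem relative, CYP71A13, and reads shared by such copies may be counted for either or for neither.

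ACD6, a membrane protein with ankyrin repeats that promotes salicylic acid signalling and cell death, was at medians of 43.8 and 51.4 CPM in Col-0 without and with SynCom. In phr1 it ran from 17.9 to 80.3 CPM (median 34.2) without bacteria and from 45.3 to 224 (median 71.1) with SynCom. Each phr1 library with SynCom was above the median of the group without bacteria, although the ranges overlapped. It rose in phr1 by 1.36 ± 0.23 and not detectably in Col-0 (−0.11 ± 0.23), and the interaction was 1.48 ± 0.32.

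WAK1, a receptor-like kinase that binds pectin in the cell wall, was at medians of 29.3 and 41.8 CPM in Col-0 and 20.2 and 47.5 CPM in phr1. It rose in phr1 by 1.75 ± 0.24, and the interaction was 1.5 ± 0.33. AT3G48080, a tandem copy of the immune regulator EDS1 with which it can share reads, had an interaction of 1.21 ± 0.27. PNP-A, a secreted natriuretic-like peptide, was at a median of 2.18 CPM in Col-0 with SynCom and 4.94 in phr1 with SynCom, from 0.657 and 0.751 without bacteria. Its interaction was 2.34 ± 0.59, and single experiments ran from 1.48 to 3.43. Other genes in this set were CNGC11, a cyclic nucleotide-gated channel linked to immunity (1.23 ± 0.31), the leucine-rich repeat kinase AT1G34420 (1.46 ± 0.37), the subtilase SBT3.5 (0.66 ± 0.15) and WRKY45, a transcription factor linked to Pi uptake (0.84 ± 0.21). SBT3.5, AT1G34420, AT3G48080, AT4G12900 and the purple acid phosphatase AT1G13750 overlap a neighbouring gene. Other genes named below, such as RLP23, BCAT4 and SULTR4;2, do so too. Without strand information reads from overlapping genes cannot be told apart.

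SUFE2, an activator of the cysteine desulfurase that supplies iron-sulphur clusters, separated most libraries by treatment. It lay between 11.1 and 17.9 CPM (median 13.5) in Col-0 without bacteria and between 1.65 and 7.81 (median 3.25) with SynCom. In phr1 it lay between 8.66 and 15.1 CPM (median 11.9) without bacteria and between 3.43 and 11 (median 5.77) with SynCom. The Col-0 groups did not overlap, and in phr1 only library E1 with SynCom reached the range of the group without bacteria. SUFE2 fell by 1.95 ± 0.16 in Col-0 and by 1.00 ± 0.15 in phr1, with an interaction of 0.95 ± 0.23 (adjusted p = 0.25).

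AT4G12900, annotated as a GILT-type thiol reductase, was the one gene of the 20 below 0. It rose in Col-0 from a median of 1.65 CPM (0.461 to 4.23) to 3.55 (0.993 to 8.17), by 1.14 ± 0.22 on the log2 scale. The phr1 medians were 2.54 CPM (1.22 to 3.79) without bacteria and 2.4 (1.2 to 4.87) with SynCom. All 4 groups overlapped, and the interaction was −1.24 ± 0.31.

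**Figure D3:**
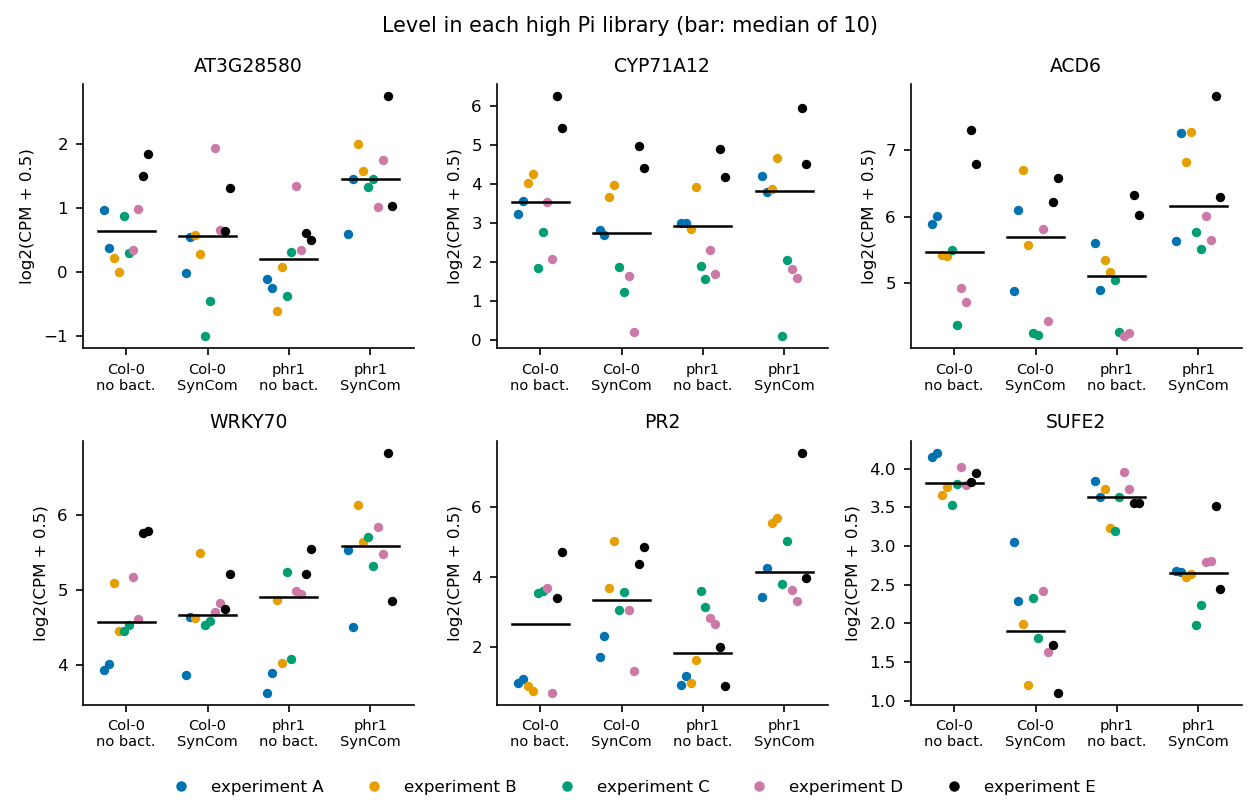
Level of 6 genes in each of the 40 high Pi libraries, as log2(CPM + 0.5) on the y axis, by group on the x axis; points are libraries coloured by experiment and bars are medians of 10. ACD6, WRKY70 and PR2 are highest in phr1 with SynCom, with medians of 71.1, 47.7 and 16.9 CPM, and SUFE2 falls by 1.95 in Col-0 and by 1.00 in phr1.

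**Figure D4:**
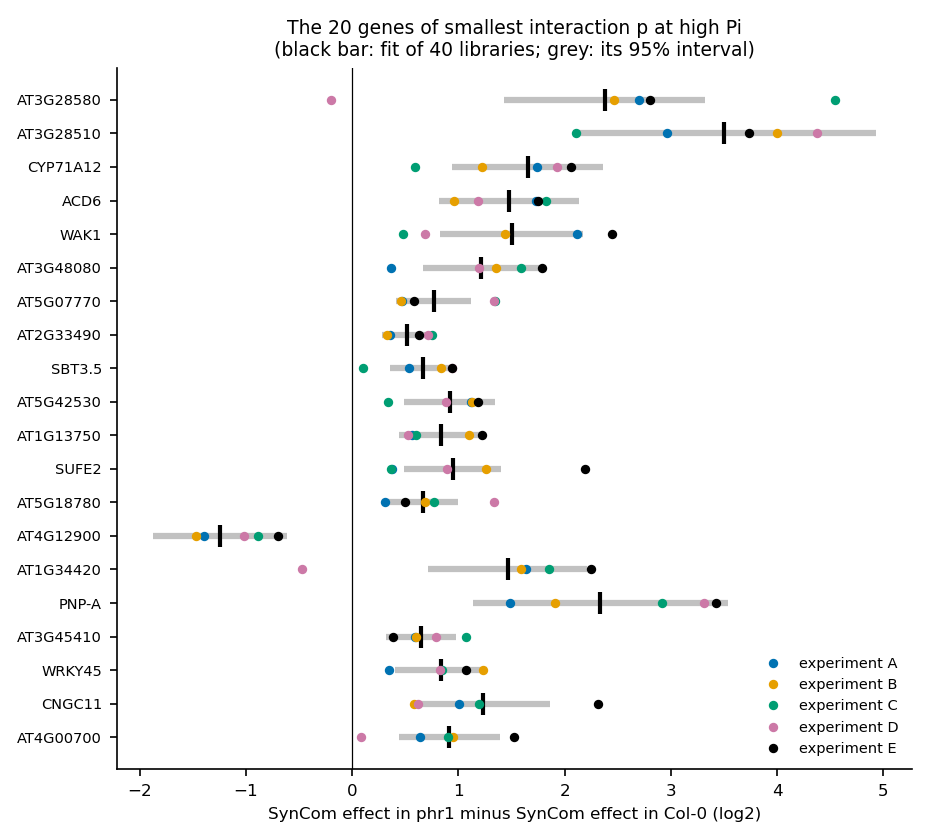
Interaction at high Pi (x axis, log2) of the 20 genes of smallest p, in the fit of 40 libraries (black bar, with its 95% interval in grey) and in each experiment alone (points). The genes were chosen by the p of this fit, so the points describe their spread and are no test; in experiment D, AT3G28580 is at −0.20 and AT1G34420 also below 0.

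Of the 30 tested genes of the salicylic acid list, 26 had an interaction above 0, with a median of 0.40. Over all genes 45.5% were above 0, with a median of −0.02. At an unadjusted p under 0.05 there were 14 genes of the list, all of them above 0 (3.11% of all genes). None passed the adjusted test in edgeR. DESeq2 and limma-voom each called 1 gene of the list, ACD6, among 12 and 13 genes called in all. The fit of summed libraries with added experiment terms called ACD6 and WRKY70, among 15 genes in all. With sample weights, added after seeing the data, limma-voom called ACD6, WRKY70, DMR6, PR2, PR5, SARD1, FMO1, WRKY46 and EDS1, all above 0. That weighted fit called 315 of all 17789 genes, 256 of them above 0. By edgeR, 1 gene of the list rose in Col-0 (2.66% of all genes) and 2 fell (4.08%). In phr1, 11 rose (3.64%) and 1 fell (3.37%). The 11 were ACD6, WRKY70, FMO1, PR5, DMR6, PR2, PBS3, NUDT6, SARD1, ICS1 and AZI1, and AZI1, which encodes a lipid-transfer-like protein of systemic priming, also rose in Col-0 (1.43 ± 0.37, against 1.69 ± 0.36 in phr1). UGT76B1, a glucosyltransferase that holds down this pathway, fell in both genotypes.

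Among the synthesis genes, PBS3, which conjugates isochorismate to glutamate, was at a median of 1.27 CPM in Col-0 without bacteria and 3.40 with SynCom. The phr1 medians were 0.772 CPM (0.213 to 2.17) without bacteria and 4.58 (0.359 to 29.5) with SynCom. It rose in phr1 by 2.97 ± 0.47, and its interaction was 1.71 ± 0.66. ICS1, the isochorismate synthase, rose in phr1 by 0.94 ± 0.22 and stood at 0.56 ± 0.23 in Col-0, with an interaction of 0.38 ± 0.32. These values depended on library E1 of phr1 with SynCom: without it the rise in phr1 was 0.62 and the interaction 0.09. Experiment E alone gave 1.49, and A to D lay between −0.01 and 0.14. FMO1, which makes the mobile signal N-hydroxypipecolic acid, was low throughout, at medians of 0.637 to 1.38 CPM, with libraries at 0 in each group. Its interaction was 1.92 ± 0.52, and 1.58 without E1 of phr1 with SynCom, and experiment D alone gave −1.2.

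Of the factors and outputs, WRKY70, a transcription factor of salicylic acid signalling, was at a median of 23.4 CPM (14.8 to 55) in Col-0 without bacteria and 25.1 (14.2 to 44.9) with SynCom. In phr1 it was at 29.5 CPM (11.9 to 46.3) without bacteria and 47.7 (22.2 to 114) with SynCom. The Col-0 groups coincided, whereas in phr1 the upper part of the SynCom group was beyond the other. The interaction was 1.05 ± 0.27 and ran from 0.75 to 1.58 over the 5 experiments. PR2, a secreted β-1,3-glucanase, was at a median of 5.75 CPM (1.11 to 25.8) in Col-0 without bacteria and 9.56 (1.95 to 32.3) with SynCom. The phr1 medians were 3.05 CPM (1.32 to 11.6) without bacteria and 16.9 (9.35 to 186) with SynCom. The Col-0 groups overlapped almost wholly, and the phr1 groups overlapped only between 9.35 and 11.6 CPM. PR2 had an interaction of 2.27 ± 0.72 (unadjusted p = 0.0032, adjusted p = 0.58), and the experiments ran from 0.45 in B to 5.07 in E.

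PR5, a thaumatin-like protein, was at medians of 3.77 and 4.82 CPM in Col-0 and 3.18 and 10.6 CPM in phr1, with an interaction of 1.98 ± 0.55. PR1, a small secreted protein and the usual marker of the pathway, did not pass the filter. It had 0 to 4 counts per library in Col-0 and 0 to 3 in phr1 without bacteria, 0 to 53 in Col-0 with SynCom, and 1 to 219 in phr1 with SynCom. More than 10 CPM was reached by 3 of 10 libraries of phr1 with SynCom and by 0 of the other 30, the highest being 75.2 CPM in E1.

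The interaction of the salicylic acid list varied between experiments: its median was 0.61 in A, 0.69 in B, 0.27 in C, 0.14 in D and 1.26 in E, and between 16 (D) and 28 (E) of the 30 genes were above 0. The mean log2(CPM + 0.5) of the list had medians of 3.24 in Col-0 without bacteria, 3.47 with SynCom, 3.23 in phr1 without bacteria and 3.87 with SynCom. All 4 groups overlapped. Without D1, all 32 genes of the list then tested were above 0, against 8858 of 17925 over all genes. Their median was 0.73, and 22 had an unadjusted p under 0.05. The share of all genes at that level was 5.5% above 0 and 3.63% below 0. In that fit 21 rose in phr1 and 2 in Col-0, against 5.08% and 3.07% of all genes. Without E1 of phr1 with SynCom, the highest library of the list, 24 of 30 were above 0, the median was 0.32, and 11 rose in phr1 (3.07% of all genes). Photosynthesis genes, the shoot markers, went the other way from the list: all 23 were below 0 with a median of −0.23, and 13 had an unadjusted p under 0.05 (3.28% of all genes). In experiment E, where the salicylic acid list was highest, 14 of the 23 were above 0, with a median of 0.02. Root hair genes were above 0 in 15 of 21, and endodermis and stele genes in 11 of 19. The part of these marker shifts in the values of the salicylic acid list was not tested.

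Pattern-triggered immunity, the response to conserved bacterial molecules, turned on library D1. Of 29 tested genes 15 were above 0, with a median of 0.02, and 2 rose in Col-0 (2.66% of all genes) and 3 in phr1 (3.64%). RLP23, a receptor-like protein that senses microbial peptides, was one of the 3: it was at a median of 2.78 CPM (1.55 to 11.7) in phr1 without bacteria and 19.3 (3.15 to 152) with SynCom. In Col-0 it was at 3.17 CPM (0.740 to 16.9) and 7.73 (1.08 to 31.4), and its interaction was 1.94 ± 0.52. FRK1, a kinase induced by flagellin, rose in both genotypes, by 2.52 ± 0.49 in Col-0 and by 3.24 ± 0.49 in phr1, with an interaction of 0.72 ± 0.67. That interaction was 0.35 without E1 of phr1 with SynCom, and experiment E alone gave 2.42. In experiment D the list's median was −2.50 with 3 genes above 0, and in the other experiments it lay between 0.22 and 1.1. Without D1, 28 of 29 genes were above 0 with a median of 0.44, and 15 rose in phr1 (5.08% of all genes) against 3 in Col-0 (3.07%). The jasmonate list moved likewise: 16 of 33 genes were above 0 with D1 and 30 of 33 without it. With D1, 1 gene of that list rose in phr1 (3.64% of all genes), and without it 8 did (5.08%).

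Of 23 tested genes of indole glucosinolates and camalexin, 21 were above 0, with a median of 0.35. At an unadjusted p under 0.05 there were 6, all above 0 (3.11% of all genes). In Col-0 none rose and 2 fell (4.08% of all genes), and in phr1 4 rose (3.64%). In experiment D this list's median was −0.46 with 7 genes above 0, and in the other experiments it lay between 0.28 and 0.95. Without D1, 11 genes of the list were above 0 at an unadjusted p under 0.05 (5.5% of all genes) and 8 rose in phr1 (5.08%). UGT74B1, a glucosyltransferase of glucosinolate synthesis, rose in phr1 by 0.68 ± 0.12, with an interaction of 0.40 ± 0.17. PAD3, the last enzyme of camalexin synthesis, had an interaction of 1.42 ± 0.59 and was called in neither genotype, but without D1 it was called in phr1 (1.31, edgeR, adjusted p = 0.037). Aliphatic glucosinolate genes were above 0 in 16 of 18 with a median of 0.38, and 11 rose in phr1 (3.64% of all genes) against 2 in Col-0 (2.66%). Without D1 the counts were 11 (5.08%) and 4 (3.07%). The list's median was −0.46 in A and −0.52 in E, and 0.93, 0.55 and 1.41 in B, C and D. BCAT4, the aminotransferase that opens methionine chain elongation, rose in phr1 from a median of 12.5 CPM (5.71 to 30.7) to 37.3 (12.2 to 48.7), by 1.1 ± 0.28. In Col-0 it was at 19.8 (3.40 to 62.6) and 24.6 CPM (5.55 to 87.5), and its interaction was 0.60 ± 0.39.

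Of the senescence list 10 of 11 genes were above 0 with a median of 0.25. At an unadjusted p under 0.05 there were 2, both above 0 (3.11% of all genes). The list's median was −0.11 in C, with 4 genes above 0, and between 0.09 and 0.81 in the other experiments. SAG13, a short-chain dehydrogenase induced in ageing and infected leaves, had an interaction of 2.12 ± 0.56 and rose in phr1 by 1.59 ± 0.38. Heat shock genes had the highest list median, 0.79, with 11 of 13 above 0, but experiment A alone gave 2.60 and the others 0.07 to 0.38. HSP90.1, a cytosolic chaperone, was at a median of 16.1 CPM (4.62 to 91.6) in Col-0 without bacteria and 10.7 (1.86 to 32.0) with SynCom. The phr1 medians were 12.2 CPM (2.72 to 24.9) and 13.1 (4.31 to 84.1), all groups overlapped, and its interaction was 1.73 ± 0.50.

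Genes of phosphate use are the textbook targets of PHR1. Of 17 tested genes of Pi transport and signalling 12 were above 0, with a median of 0.05. PHT1;1, a high-affinity Pi transporter of the root, rose by 0.65 ± 0.14 in Col-0 and by 0.66 ± 0.14 in phr1, with an interaction of 0.01 ± 0.19. SPX1, the Pi-dependent inhibitor of PHR1, was at medians of 9.38 and 10.3 CPM in Col-0 and 6.23 and 7.34 CPM in phr1, with an interaction of 0.02 ± 0.23. AT4, a non-coding RNA that sequesters miR399, rose in both genotypes, by 1.01 ± 0.23 in Col-0 and 0.93 ± 0.27 in phr1, with an interaction of −0.07 ± 0.37. The lowest p of the list was that of AT1G63010, annotated as an SPX-domain transporter, at 0.39 ± 0.11.

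IPS1 is another RNA that sequesters miR399. In Col-0 it was at 0 in 8 of 10 libraries without bacteria and in 5 of 10 with SynCom, and never above 0.814 CPM. In phr1 it was counted in every library, at 0.305 to 3.11 CPM (median 1.21) without bacteria and at 4.01 to 6.44 (median 5.74) with SynCom. The phr1 groups did not overlap, and each phr1 library with SynCom was above each of the 20 Col-0 libraries. IPS1 rose in phr1 by 2.25 ± 0.27 (adjusted p = 2.2e-07). Its interaction, 0.79 ± 1.23, is poorly determined because of the libraries at 0.

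Of 10 tested phosphatases and Pi scavenging genes 7 were above 0, with a median of 0.17. AT1G13750, a purple acid phosphatase, was at a median of 5.34 CPM (2.59 to 6.35) in Col-0 without bacteria and 6.85 (3.70 to 8.48) with SynCom. In phr1 it was at 4.84 CPM (2.44 to 5.44) and 9.47 (6.44 to 17.9), with no overlap. It rose by 0.45 ± 0.14 in Col-0 and by 1.28 ± 0.14 in phr1, and its interaction was 0.83 ± 0.20 (adjusted p = 0.21). Membrane lipid remodelling genes were above 0 in 5 of 13, with a median of −0.05.

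Over the 5 experiments together, the iron and sulphur lists leaned in opposite directions, but neither lean held in every experiment. Of 18 tested genes of iron deficiency and coumarins 5 were above 0, with a median of −0.15. In Col-0 4 fell (4.08% of all genes) and 2 rose (2.66%), and in phr1 6 fell (3.37%) and 1 rose (3.64%). The list's median was −0.20, −0.22 and −0.44 in A, B and E, and 0.16 and 0.11 in C and D. CYP82C4 had the smallest p of the list, with an interaction of −3.82 ± 1.13, but stood at 2.39 in C. It was at 0 in 8 of 10 phr1 libraries with SynCom. IRT1, the root's ferrous iron transporter, was at a median of 26.7 CPM (1.17 to 103.9) in phr1 without bacteria and 4.60 (0.757 to 51.8) with SynCom. In Col-0 it was at 16.9 CPM (0.443 to 109) and 9.24 (0.743 to 65.7), and all groups overlapped. It fell in phr1 by 1.8 ± 0.30, with an interaction of −1.2 ± 0.42 that was below 0 in 4 of 5 experiments. FRO2, the ferric reductase that works with it, had an interaction of −0.83 ± 0.36 but was at 2.90 in D. NAS1, a nicotianamine synthase, had one of −0.75 ± 0.30. Of 12 sulphur deficiency genes 10 were above 0, with a median of 0.27. That list's median was 0.14, 0.89 and 1.13 in B, C and D, but −0.08 in A and −0.07 in E. SULTR4;2, a vacuolar sulphate exporter, had an interaction of 0.69 ± 0.23. The lists of nitrate and ammonium (12 of 21 above 0), ferritins and vacuolar iron (3 of 5), anthocyanin and flavonoid (2 of 5) and mitotic cell cycle (8 of 16) had medians between −0.02 and 0.06.

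The same interaction was read at low Pi, in libraries that the values above did not use, although from the same 5 experiments. In the fit of 80 libraries 167 genes were called above 0 (0.894% of 18690) and 241 below 0 (1.29%). That count of 408 depended on every experiment: it was 50, 47, 141 and 86 without A, B, C and D, and 2237 without E. Of the 20 genes of smallest p at high Pi, 14 were above 0 at low Pi, and SUFE2 was the 1 called there. SUFE2 was on the opposite side at low Pi, at −1.22 ± 0.34 (adjusted p = 0.033). CYP71A12 was at 1.77 ± 0.57 (adjusted p = 0.074), AT5G42530 at 0.92 ± 0.29, WAK1 at 0.93 ± 0.38, ACD6 at 0.75 ± 0.35 and AT3G28510 at 0.31 ± 0.69. Of the 553 genes above 0 at an unadjusted p under 0.05 at high Pi, 372 (67.3%) were above 0 at low Pi. Of the 584 genes below 0, 401 (68.7%) were also above 0 at low Pi, against 49.7% of all genes. Most genes of both classes were thus above 0 at low Pi.

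By list, salicylic acid genes were above 0 at low Pi in 31 of 34, with a median of 0.39, and 1 was called above 0. Photosynthesis genes were above 0 in 22 of 23, with a median of 0.24, where all 23 had been below 0 at high Pi. The median was −0.77 for sulphur deficiency (1 of 12 above 0) and for root hair (0 of 21), and 0.30 for iron deficiency and coumarins (15 of 21). The difference of the interaction between low and high Pi was tested itself and called for 0 of 18690 genes (0%), with 2029 genes at an unadjusted p under 0.05, 10 called by DESeq2, and 426 called by edgeR without experiment E. SUFE2 had a low minus high value of −2.19 (edgeR, unadjusted p = 5.7e-05).

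**Figure D5:**
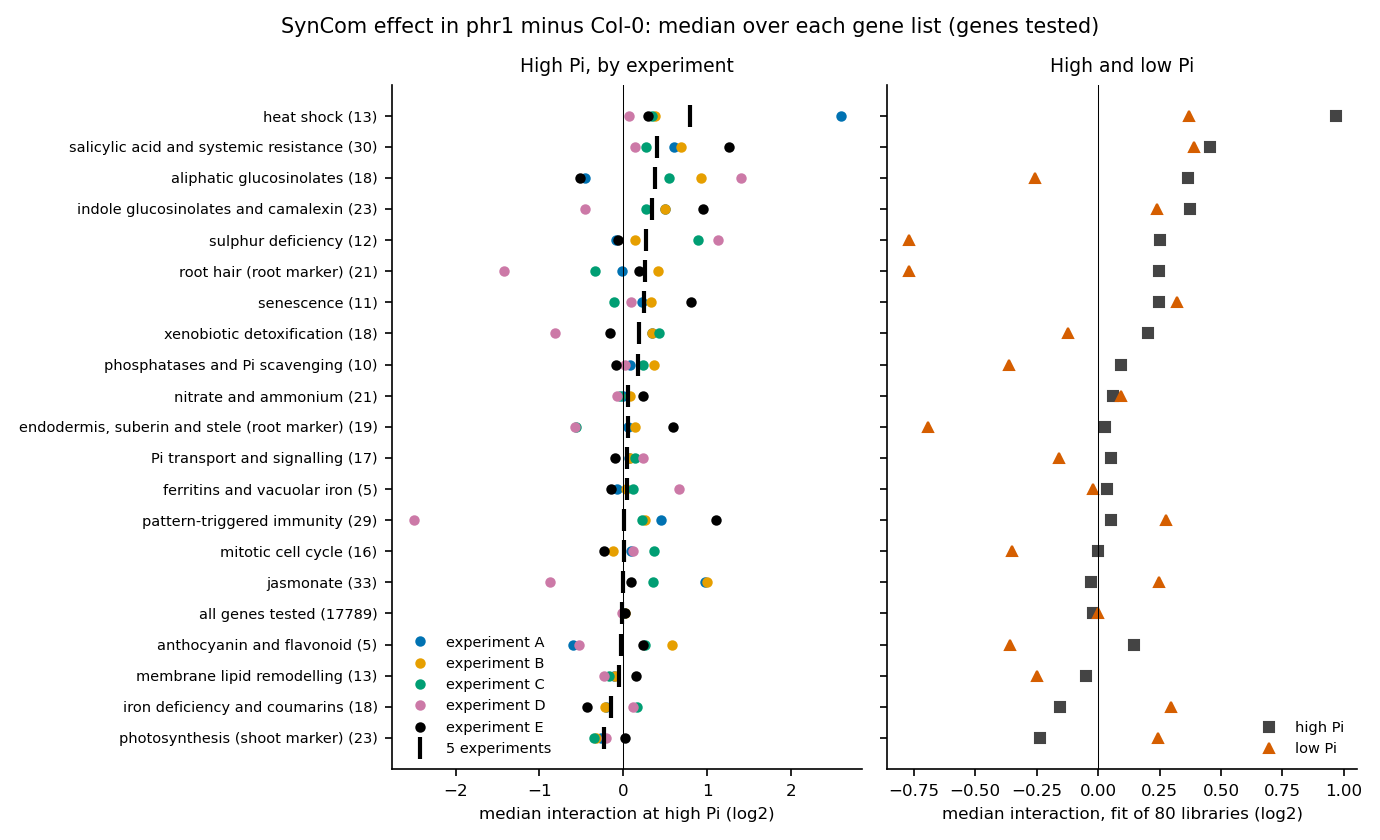
Median interaction (x axes, log2) over the tested genes of each list, with the number tested at high Pi in brackets. The left panel shows high Pi by experiment (points) and in the fit of 40 libraries (bars), with heat shock at 2.60 in experiment A and pattern-triggered immunity at −2.50 in D, and the right panel shows high Pi (squares) and low Pi (triangles) in the fit of 80 libraries, with the salicylic acid list at 0.45 and 0.39.

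The double mutant phr1 phl1 was present in experiments C, D and E only, with 6 libraries per group, and is set against the same Col-0 libraries as phr1, so the values stand side by side without a test of likeness. Its interaction was called for 0 of 17435 genes (0%), with 1014 at an unadjusted p under 0.05, a smallest adjusted p of 0.81 and 0 calls by DESeq2. Over those 3 experiments the salicylic acid list had a median of 0.52 in phr1 and 0.11 in phr1 phl1, where 19 of 32 genes were above 0. Of the 20 genes of smallest p in phr1, 19 were above 0 in phr1 phl1, against 8837 of 17367 over all genes. These 20 were chosen with the Col-0 libraries that both mutants share, so this count is a description only. ACD6 was at 1.55 in phr1 and 0.63 in phr1 phl1, CYP71A12 at 1.74 and 1.67, AT3G28510 at 3.70 and 2.46, and WAK1 at 1.22 and 0.02. Photosynthesis genes had medians of −0.17 in phr1 and 0.21 in phr1 phl1.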

How the data were processed

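The libraries are non-stranded poly(A) RNA-seq of whole seedlings, per the labels' protocols. The deposited values are whole-number read counts per gene for 27206 loci; the submitters' processing notes name the TAIR10 build and, among the authors' tools, HTSeq (0.6.1p1), TopHat2 (2.1.1), cutadapt (1.3) and CASAVA (1.8). Symbols were taken from the RefSeq gene table, which held 26719 of the loci.

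From the counts, edgeR 4.0.16 (R 4.3.3) was run with TMM scaling, filterByExpr, a quasi-likelihood F test and Benjamini-Hochberg adjustment over all genes tested, at 0.05. The 40 high Pi libraries of Col-0 and phr1 were fitted with experiment as a block. The low Pi interaction and its difference from high Pi came from 80 libraries, and phr1 phl1 from 36 libraries of experiments C to E. The SE is the log2 value divided by the square root of F. DESeq2 1.42.0 and limma 3.58.1 served as alternatives, and the procedure was tested on simulated data.

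The named genes were PHR1, PHL1, the called genes or else those of smallest p up to 20, up to 4 of smallest p from each of 20 lists, and IPS1, AT4, SPX1, PR1, PR2, PR5, PBS3, ICS1 and FRK1. PHT1;1, GSTU24, CYP81D11, AZI1, UGT76B1 and the other list members named by a call were chosen after their values were seen. The comparison and the lists were chosen with earlier results of these data known.

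The labels describe biological replicates from independent experiments. Within a group, no pair of libraries matched to sampling noise (lowest chi-square per degree of freedom 1.93 over 180 pairs). Libraries of different groups from the same experiment deviated together (median r of 0.644). With experiment removed, those that shared a number had a median r of −0.137 and those of the same experiment with another number −0.141.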

Additional observations from a re-analysis of the deposited data

Results flagged for a closer look

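One library far from the other 9 of its group was found in 7 of 136 groups tested (28 genes and 6 library measures in 4 groups). Chance alone gives about 1 in 20, so the count is near that of chance. D1 of phr1 without bacteria had a residual SD of 0.811, and C1 of Col-0 with SynCom one of 0.446. The photosynthesis sum of D1 of Col-0 without bacteria was 137200 CPM, against 94680 in the next library. E1 of phr1 with SynCom had 77.6 CPM of PR5, against 24.4 in the next, and 11 CPM of SUFE2, against 6.47. In Col-0 without bacteria, A2 had 0.535 CPM of IPS1 and B1 had 3.15 CPM of PRP1. The cause of these values was not tested.

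At low Pi the SynCom effect differed between phr1 and Col-0 in 9 of the 106 named genes tested, all of them below 0. The test was edgeR's quasi-likelihood test of the interaction. Over all 18690 genes, 0.894% were called above 0 and 1.29% below 0. That count of 408 ran from 47 without experiment B to 2237 without E, and these 9 genes were not read in such fits. With all 5 experiments the values were −3.68 for IPS1 (adjusted p = 0.006), −2.13 for LSU2 (adjusted p = 0.006), −0.65 for ABCG20 (adjusted p = 0.0111) and −1.36 for APR1 (adjusted p = 0.019). They were −1.35 for CYP86B1 and −1.59 for PHO1;H1 (adjusted p = 0.0224 for each), −1.40 for FAR4 (adjusted p = 0.0289), −1.22 for SUFE2 (adjusted p = 0.0334) and −0.84 for SULTR4;2 (adjusted p = 0.0444).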

How the results depend on the processing

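The count of 0 for the interaction at high Pi held with RLE or upper-quartile scaling, either other filter, summed libraries, no experiment term and all libraries of the series. It was 12 with DESeq2, 13 with limma-voom, 15 with summed libraries and terms for experiment by bacteria and by genotype, and 0 to 2 when 1 experiment was left out. Of the alternatives chosen after seeing the data, leaving out D1 gave 6, leaving out E1 gave 0, and limma-voom with sample weights gave 315 (256 above 0). The Col-0 count was 192 without the experiment term, 732 with summed libraries, 702 with summed Col-0 libraries alone, 694 with all libraries of the series, 2635 with sample weights and 734 to 1075 with 1 experiment left out. The phr1 count was 233 without the experiment term, 179 with summed phr1 libraries alone, 2824 with sample weights and 756 to 1504 with 1 experiment left out. The count for the interaction at low Pi was 647 with DESeq2 and 47 to 2237 with 1 experiment left out. The low minus high count was 10 with DESeq2 and 0 to 426 with 1 experiment left out. Replicate numbers are shared across groups but mark no stated pairing. A replicate block of experiment and number gave 0 for the interaction at high Pi (1083 genes at an unadjusted p under 0.05). That block gave 1132 for Col-0, 1177 for phr1, 352 for the interaction at low Pi and 0 for both other tests. Of the named genes' 1985 alternative values 37 changed sign, in 11 genes with interactions that did not pass. Without the experiment term VTL1 was at −0.0557, CHS at −0.0175 and PHL1 at 0.0161; with summed libraries PHL1 was at 0.0103 and SPX1 at −0.0102, and with the added experiment terms PHL1 was at 0.0327 and SPX1 at −0.0206. SPX1 was at −0.0166 with all libraries of the series. With limma-voom PUB23 was at 0.0152 and DFR at 0.174, and with sample weights PUB23 was at 0.288, DFR at 0.0481, AT4 at 0.173 and SPX1 at −0.118. Without D1, PUB23 was at 0.198, DFR at 0.126, AT4 at 0.0839 and SPX1 at −0.0402, and without E1, PHL1 was at 0.0385 and SPX1 at −0.0101. With 1 experiment left out, the lowest and highest values were −1.64 and 0.282 for PUB23, −0.0153 and 0.605 for MYB51, −0.0646 and 0.583 for VTL1, −0.592 and 0.0585 for CSLD3, −0.657 and 0.208 for DFR, −0.0251 and 0.077 for CHS, −0.0508 and 0.146 for PHR1, −0.139 and 0.12 for PHL1, −0.154 and 0.91 for IPS1, −0.328 and 0.176 for AT4, and −0.128 and 0.134 for SPX1. The cause was not tested.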
